A study of Mus musculus with 6 samples.

Results

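The kinesins are the motor proteins that walk along microtubules. The genes described here are the 38 kinesin genes with more than 10 expected counts in at least 2 libraries, out of 41 gene symbols of the form Kif or Kifc with a number and of 17348 genes that were tested in all. Kif2b (0 counts in every library), Kif6 and Kif12 (at most 7 counts in any library) did not reach this level. By their textbook roles, 13 of the 38 were taken as mitotic motors, 15 as motors of cargo transport, and 10 as motors of cilia, signalling or microtubule ends. Kif19a passed through its NF-YAfl/fl libraries only and Kif17 through its NF-YAcKO libraries only.

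Satellite cells (SCs), the stem cells of skeletal muscle, were isolated from hindlimb muscles of tamoxifen-treated mice by depletion of CD31, CD45, CD11b and Sca1 positive cells, grown for a few days in growth medium with FGF-2, and sequenced as total RNA. Both groups carried LoxP sites in introns around NF-YA exons, and NF-YA is the subunit by which the transcription factor NF-Y binds DNA. The 3 NF-YAcKO libraries came from mice that also carried Pax7-CreERT2, a Cre that is expressed in Pax7 positive cells and activated by tamoxifen, and the 3 NF-YAfl/fl libraries from mice without Cre. The labels give an age of 5 to 7 weeks and tamoxifen at 20 mg/ml for both groups. The labels number the replicates, and the p-values below measure the spread between these libraries.

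A kinesin hydrolyses ATP to step along a microtubule, in most families towards the plus end and in the Kifc family towards the minus end, and some families take tubulin off microtubule ends instead of walking. In a dividing cell one set of kinesins separates the spindle poles, moves chromosomes and builds the midbody. Other kinesins carry vesicles, mitochondria and, in muscle fibres, nuclei. NF-Y binds the CCAAT box, which is common in promoters of genes used in G2 and mitosis.

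The libraries held 26936230 to 41118984 expected counts. Levels are given as CPM, that is counts scaled to library size with TMM factors, and differences as the log2 fold change of NF-YAcKO against NF-YAfl/fl with its standard error (SE). A call of higher or lower needed an FDR below 0.01 in edgeR's quasi-likelihood test over all tested genes and a fold beyond 1 or -1 on the log2 scale. For the targeted gene, Nfya, the levels were 27.0, 28.5 and 27.0 CPM in NF-YAcKO and 23.4, 25.7 and 36.9 CPM in NF-YAfl/fl (log2 fold change -0.06, SE 0.18, FDR = 0.814 by edgeR). The transcript that the authors added for the deleted allele had 189, 312 and 393 expected counts in NF-YAcKO, which was 27.3, 32.0 and 40.5% of the Nfya TPM, and 0 counts in all 3 NF-YAfl/fl libraries, so undeleted transcripts remained in the NF-YAcKO cultures. The SC marker Pax7 was at 145, 165 and 201 CPM in NF-YAcKO and 73.5, 87.5 and 105 CPM in NF-YAfl/fl, and Chodl was near 0 in all libraries. The 9 tested SC markers were not of 1 direction. Met was called higher, Cdh15 (log2 fold change -1.78, FDR = 0.000272) and Des (-2.09, FDR = 0.000218) were called lower by edgeR, and the summed level was 1960 to 2160 CPM in NF-YAcKO and 2460 to 4060 CPM in NF-YAfl/fl. The 15 tested markers of differentiated muscle were all called lower in NF-YAcKO (summed level 718 to 1580 CPM against 48400 to 59000 CPM), and 13 of 13 macrophage markers were called higher (148 to 295 CPM against 6.17 to 13.2 CPM). Lyz2 was at 190.0, 203 and 100.9 CPM and 4.01, 6.24 and 1.97 CPM, and Ptprc was at 3.06, 2.80 and 1.15 CPM in NF-YAcKO and at 0, 0.149 and 0.170 CPM in NF-YAfl/fl. Of the other cell type lists, 5 of 9 Schwann cell markers were called higher (summed level 102 to 117 CPM against 53.6 to 93.9 CPM), as were 1 of 7 endothelial markers (Kdr, 16.6 to 20.9 CPM against 5.43 to 9.90 CPM for the list) and 1 of 9 fibro-adipogenic markers (2060 to 2480 CPM against 1150 to 3080 CPM), and 2 of 7 pericyte and smooth muscle markers, Abcc9 and Acta2, were called lower (895 to 1040 CPM against 1970 to 2380 CPM). Over all tested genes, 4.65% were called higher and 7.67% lower. In bulk cultures, fewer cells of a type and less RNA per cell cannot be told apart. Xist was at 852, 836 and 842 CPM in NF-YAcKO and under 1 CPM in NF-YAfl/fl, and the Y-linked Ddx3y was at 80.9 to 88.6 CPM in NF-YAfl/fl and under 1 CPM in NF-YAcKO, and the study's methods describe male mice. By these genes the NF-YAcKO libraries read as female and the NF-YAfl/fl libraries as male. Genotype and sex thus cannot be told apart in these libraries. This touches every difference given here, and Kif4 is the only X-linked kinesin here.

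Of the 38 kinesins, 6 were called higher in NF-YAcKO and all 6 were mitotic motors. Another 4 were called lower, and none of these was a mitotic motor. Among all tested genes, 4.65% were called higher and 7.67% lower. The 13 mitotic kinesins had a median log2 fold change of 1.09, the 15 transport kinesins of -0.31 and the 10 others of -0.32, beside -0.02 over all tested genes. At an FDR under 0.01 whatever the fold, 8 of 13 mitotic kinesins were higher (10.3% of all genes), and 3 of 15 transport kinesins and 3 of 10 others were lower (9.97% of all genes). For all 13 mitotic kinesins each NF-YAcKO library was above each NF-YAfl/fl library, which held for 29.1% of all genes. The opposite separation was found for 9 of 15 transport kinesins and 4 of 10 others, and for 26.2% of all genes. Among these 4 is Kif19a, which passed the count filter through its NF-YAfl/fl libraries only. Its separation was thus partly set by the filter and is no support. These counts rest on the division into classes, which was chosen with earlier results of these data known. Kif2a, a relative of the mitotic Kif2c, was placed among the others, and its groups overlapped (log2 fold change 0.33, SE 0.15, FDR = 0.119 by edgeR).

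**Figure D1:**
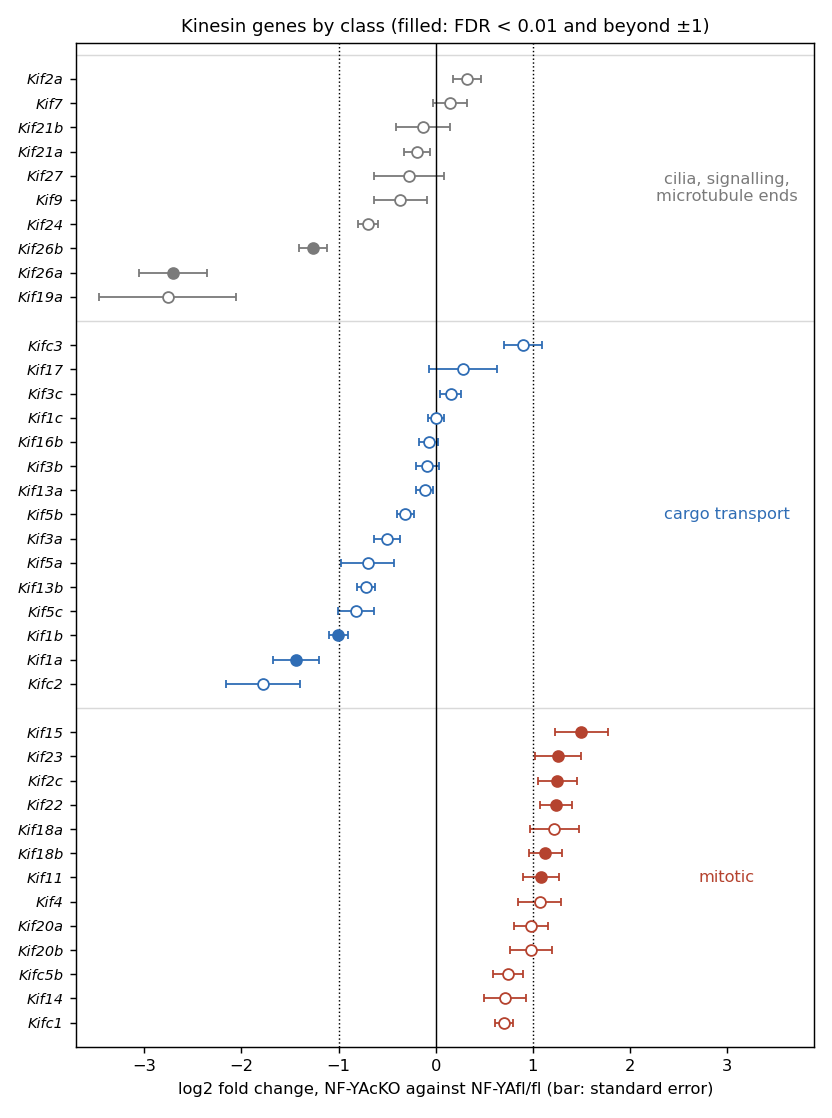
Log2 fold change of NF-YAcKO against NF-YAfl/fl for the 38 kinesin genes (horizontal axis) with its SE as the bar, ordered within each class. Filled points were called, and the 13 mitotic motors lie between 0.71 and 1.499, while transport motors spread from -1.78 to 0.90.

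All 13 mitotic kinesins lay above 0 on the log2 scale. Spindle assembly begins with Kif11, the bipolar motor that pushes the spindle poles apart. Kif11 was at 140.4, 159 and 144 CPM in the NF-YAcKO libraries and at 61.3, 90.6 and 57.1 CPM in the NF-YAfl/fl libraries. It rose 2.12-fold (log2 fold change 1.09, SE 0.18, FDR = 0.00472, edgeR). Kif15, a motor that can hold the poles apart beside Kif11, had the largest log2 fold change of the mitotic set. Kif15 stood at 73.6, 78.6 and 73.0 CPM in NF-YAcKO and at 21.5, 39.4 and 18.7 CPM in NF-YAfl/fl, a 2.83-fold rise (log2 fold change 1.499, SE 0.27, FDR = 0.00621). In both genes the second NF-YAfl/fl library lay nearest to the NF-YAcKO libraries, without reaching them. Kifc1, the minus-end motor that draws the poles together, was at 52.8, 57.7 and 52.7 CPM and 31.2, 34.4 and 34.4 CPM in the same order. Its difference was small in size and in error (log2 fold change 0.71, SE 0.09, FDR = 0.00193), so that it passed the FDR threshold but not the threshold on the fold. Kifc5b, a close copy of Kifc1, was at 17.6, 15.6 and 17.4 CPM and 8.28, 10.3 and 11.6 CPM (log2 fold change 0.74, SE 0.16, FDR = 0.0109). The longest annotated transcripts of the copies, GENCODE vM21, were identical at 86.5% of aligned positions, so the split of reads between them is an estimate of RSEM.

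The chromokinesins, which bind chromosome arms, are Kif22 and Kif4. Kif22 was at 54.4, 56.0 and 52.1 CPM in NF-YAcKO and at 18.3, 28.6 and 21.9 CPM in NF-YAfl/fl, and rose 2.36-fold (log2 fold change 1.24, SE 0.17, FDR = 0.00212). Kif4 was at 78.0, 83.6 and 77.9 CPM against 33.8, 52.2 and 27.9 CPM. Its fold was past the threshold and its FDR lay at the edge of it (log2 fold change 1.07, SE 0.22, FDR = 0.010002 by edgeR), and the gene was not called. Of the motors that act on microtubule ends, Kif2c, the depolymerase of the centromere, was at 65.4, 75.5 and 68.9 CPM against 25.8, 39.1 and 23.0 CPM and rose 2.39-fold (log2 fold change 1.25, SE 0.20, FDR = 0.00406). Kif18b, which shortens astral microtubules, was at 42.7, 49.0 and 47.1 CPM against 17.7, 26.3 and 19.3 CPM and rose 2.19-fold (log2 fold change 1.13, SE 0.16, FDR = 0.00277). Its relative Kif18a, which damps chromosome movements at the metaphase plate, was at 32.2, 32.5 and 28.6 CPM against 12.3, 18.6 and 8.99 CPM. Kif18a had a fold of the same order with a wider error and was not called (log2 fold change 1.22, SE 0.26, FDR = 0.0101).

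The motors of the midzone and of cytokinesis are Kif23, Kif20a, Kif20b and Kif14. Kif23, the motor subunit of the centralspindlin complex, was at 86.3, 87.1 and 82.8 CPM against 29.4, 50.6 and 26.9 CPM and rose 2.40-fold (log2 fold change 1.26, SE 0.24, FDR = 0.00698). Kif20a, which brings the chromosomal passenger complex to the midzone, was at 143, 143 and 135 CPM against 68.5, 89.8 and 54.6 CPM. It passed the FDR threshold with a fold just under the limit (log2 fold change 0.98, SE 0.18, FDR = 0.00590, edgeR). Kif20b, a midbody motor, was at 69.8, 74.8 and 68.2 CPM against 33.0, 48.5 and 26.4 CPM (log2 fold change 0.98, SE 0.21, FDR = 0.0120). Kif14, which recruits citron kinase to the midbody, was at 33.3, 35.2 and 32.8 CPM against 19.7, 27.3 and 14.7 CPM and had the highest FDR of the mitotic set (log2 fold change 0.71, SE 0.21, FDR = 0.0372). The calls of the 6 mitotic kinesins were lost in 5 to 7 of the 16 alternatives each. At an FDR under 0.05 whatever the fold, all 13 mitotic kinesins were higher, beside 19.7% of all genes.

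**Figure D2:**
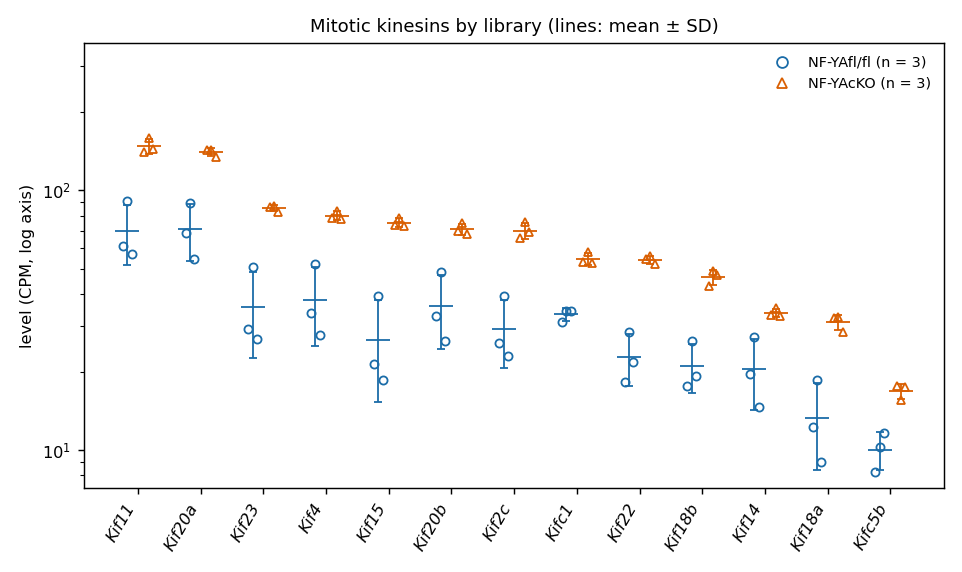
Level of the 13 mitotic kinesins in each library (CPM, log axis), with 3 NF-YAfl/fl libraries as circles and 3 NF-YAcKO libraries as triangles, and lines for the mean and SD. The NF-YAcKO libraries lie close together and above every NF-YAfl/fl library, and 1 NF-YAfl/fl library, the second, is the highest of its group for 11 of the 13 genes.

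The spread of the mitotic kinesins lay mainly among the NF-YAfl/fl libraries. The coefficient of variation had a median of 29.3% over the 13 genes in NF-YAfl/fl and of 4.86% in NF-YAcKO, against 14.2% and 5.47% for the transport kinesins. The median level of the mitotic kinesins, as a percent of the NF-YAcKO mean, was 41.4, 60.9 and 38.6% in the 3 NF-YAfl/fl libraries. The second NF-YAfl/fl library also had the lowest summed level of the differentiated muscle markers in its group, 48400 CPM against 59000 and 51700 CPM. The larger part of this sum was Ttn (40746, 34616 and 36462 CPM in the NF-YAfl/fl libraries), and the markers differed in their order. For Myog the second NF-YAfl/fl library was the lowest (965, 584 and 1450 CPM), and for Tnnt3 the third (562, 435 and 272 CPM). The proliferation marker Mki67 was at 461, 487 and 487 CPM in NF-YAcKO and 289, 468 and 222 CPM in NF-YAfl/fl (log2 fold change 0.55, SE 0.26, FDR = 0.131 by edgeR), and for this gene the second NF-YAfl/fl library lay within the range of NF-YAcKO. Without that library 10 mitotic kinesins were called, without NF-YAfl/fl replicate 1 only 1, and without any 1 of the NF-YAcKO libraries edgeR called 0. In these last fits 10 to 11 mitotic kinesins had an FDR under 0.05 and 12 to 13 an unadjusted p under 0.05, all higher, and with all libraries DESeq2 called 8. With limma on log2(TPM + 1) 0 were called, with 7 at an FDR under 0.05 and 12 at an unadjusted p under 0.05. The part of the muscle, macrophage and other cell type markers in these differences was not tested.

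The proteins with which the mitotic kinesins work were read from a list of 24 spindle and midzone genes, all of them tested. Of these, edgeR called 12 higher, beside 4.65% of all genes, and 0 lower, with 0 lower also at an unadjusted p under 0.05 and by DESeq2. In 23 the groups separated with NF-YAcKO above, beside 29.1% of all genes, and the median log2 fold change was 1.06. The count called higher was 20 without NF-YAfl/fl replicate 2, 2 without NF-YAfl/fl replicate 1, and 1 to 2 without any 1 of the NF-YAcKO libraries. Bub1b, a spindle checkpoint kinase, was at 138, 151 and 139 CPM against 38.6, 66.4 and 38.0 CPM and had the largest change (log2 fold change 1.58, SE 0.23, FDR = 0.00258). Aurka, the kinase of the spindle poles, was at 81.5, 88.3 and 83.8 CPM against 26.8, 36.4 and 28.1 CPM (log2 fold change 1.47, SE 0.13, FDR = 0.000567). Birc5 (log2 fold change 1.44), of the chromosomal passenger complex, and Bub1 (1.39), another checkpoint kinase, also rose. Numa1, a spindle pole protein, was the 1 member whose groups overlapped (log2 fold change 0.01, SE 0.11, FDR = 0.934). Cenpe is itself a kinesin, of the kinetochore, that the symbol pattern leaves out. It was at 138, 142 and 129 CPM against 60.9, 104 and 52.6 CPM and was not called (log2 fold change 0.90, SE 0.25, FDR = 0.0274).

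The promoters of the mitotic kinesins are of interest here because NF-Y binds the CCAAT box and because many mitotic genes also hold a cell cycle genes homology region (CHR), TTTGAA. Promoter windows from 250 bases before to 50 bases after an annotated start, RefSeq on GRCm38.p6, were given for 30 of the 38 kinesins, among them 12 of 13 mitotic members. CCAAT, read on both strands (ATTGG on the other), was in the windows of 8 of the 12 mitotic kinesins, 3 of 10 transport kinesins and 3 of 8 others, and in those of 41.1% of all 27025 genes with a window. TTTGAA, also on both strands (TTCAAA), was in 11 of 12 mitotic, 1 of 10 transport and 2 of 8 other kinesins, beside 20.2% of all genes. Both motifs were found in 8 mitotic kinesins, 0 transport kinesins and 2 others, beside 7.97% of all genes. Within 30 bases of the start, a limit chosen after the matches were seen, TTTGAA lay in 9 of 12 mitotic, 0 of 10 transport and 1 of 8 other kinesins, and in 3.66% of all genes. The 1 other kinesin is Kif26b, called lower in NF-YAcKO, with CCAAT at -73 and TTTGAA at -9. Of the 4 kinesins called lower, 2 held CCAAT (Kif1b and Kif26b) and 2 held TTTGAA (Kif26b and Kif1a, the latter at -44). The Kif1a match was in 1 of its 2 windows, and the window at the outer start of the gene held none. Of the 6 called higher, 4 held CCAAT and 6 TTTGAA. The 27025 genes with a window include genes that were not tested here, whereas all 38 kinesins were tested. These are matches of letters, and no binding was measured.

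The stretches below are those of 7 of the 9 mitotic kinesins with a TTTGAA match within 30 bases of the start, on the strand of transcription, with matches to CCAAT or TTTGAA on either strand in capitals.
Kif11 (chr19:37376312-37376401, plus strand): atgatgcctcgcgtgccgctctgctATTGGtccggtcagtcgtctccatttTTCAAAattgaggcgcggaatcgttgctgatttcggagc
Kif15 (chr9:122951011-122951100, plus strand): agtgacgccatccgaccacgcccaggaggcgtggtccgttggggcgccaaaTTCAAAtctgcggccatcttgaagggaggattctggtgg
Kif18b (chr11:102925105-102925194, minus strand): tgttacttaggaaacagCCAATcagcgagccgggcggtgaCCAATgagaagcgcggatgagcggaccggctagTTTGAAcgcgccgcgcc
Kif23 (chr9:61946788-61946877, minus strand): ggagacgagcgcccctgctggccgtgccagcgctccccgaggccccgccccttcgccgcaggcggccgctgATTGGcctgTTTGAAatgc
Kif4 (chrX:100626000-100626089, plus strand): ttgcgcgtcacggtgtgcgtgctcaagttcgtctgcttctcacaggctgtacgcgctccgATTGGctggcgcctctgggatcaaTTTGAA
Kifc1 (chr17:33890619-33890708, minus strand): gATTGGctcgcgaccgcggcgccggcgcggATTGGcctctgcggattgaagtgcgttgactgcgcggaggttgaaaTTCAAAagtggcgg
Kifc5b (chr17:26917021-26917110, plus strand): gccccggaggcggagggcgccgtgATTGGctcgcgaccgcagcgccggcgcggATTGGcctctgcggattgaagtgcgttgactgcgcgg
In Kif11 the CCAAT match begins at -45 and the TTTGAA match at -19, counted from the annotated start. In Kif22, not printed, the pair begins at -54 and -17, and in Kif18b the CCAAT matches at -53 and -30 precede a TTTGAA match at 4. In Kif20b, also not printed, TTTGAA stands in tandem, at 8 and 14. Kif15 and Kif20b hold no CCAAT match in their windows, and the TTTGAA match of Kif15 near the start is at -19. Kifc1 and Kifc5b share a pair of CCAAT matches that begin at -74 and -45 in Kifc1 and at -46 and -17 in Kifc5b, whose TTTGAA match, at 30, lies outside the stretch shown, and their windows were identical at 75.6% of aligned positions. Kif18a, with a log2 fold change of 1.22, held neither motif in its window.
Kif1b, a transport kinesin that was called lower, is shown for contrast, since its window also holds a pair of CCAAT matches, at -153 and -122, and no TTTGAA match, unlike Kif26b.
Kif1b (chr4:149307784-149307873, minus strand): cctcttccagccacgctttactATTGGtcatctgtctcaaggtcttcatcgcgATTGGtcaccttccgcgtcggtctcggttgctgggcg

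**Figure D3:**
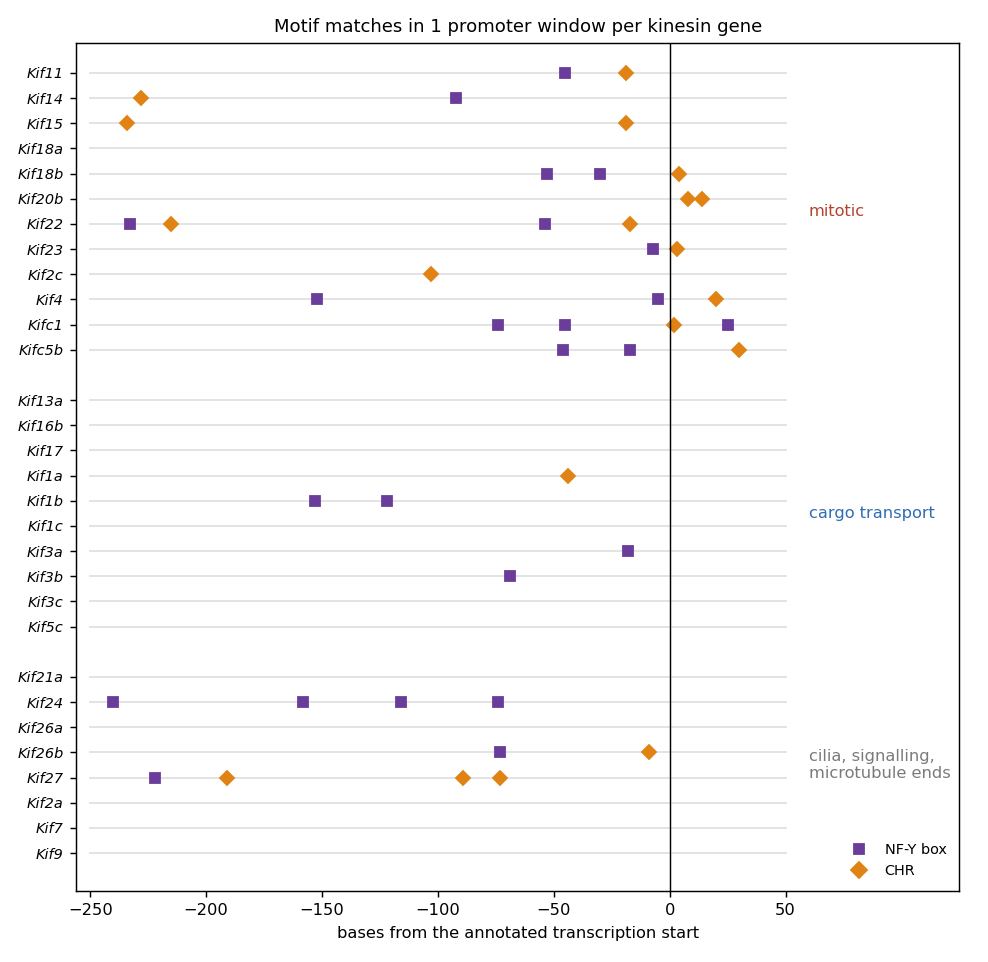
Start of each match to the NF-Y box (squares) and the CHR (diamonds) in 1 promoter window for each of 30 kinesin genes, in bases from the annotated transcription start (horizontal axis), with genes grouped by class. A CHR match lies within 30 bases of the start in 9 mitotic kinesins, a limit chosen after the matches were seen. Kif15 and Kif22 hold a further CHR match upstream of that limit. The only transport kinesin with a CHR match is Kif1a, whose other window, not drawn, holds none.

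Transport kinesins differed in size and direction from gene to gene. The Kif1 family carries vesicle precursors, and Kif1b also mitochondria. Kif1b was at 173, 179 and 174 CPM in NF-YAcKO and at 370.2, 317 and 369.5 CPM in NF-YAfl/fl, with no overlap and a narrow spread in both groups. It fell by 1.005 on the log2 scale (SE 0.10, FDR = 0.000711), the lowest FDR of all 38 kinesins by edgeR. Kif1a, best known from neurons, was at 6.44, 7.41 and 6.63 CPM against 19.8, 23.2 and 12.5 CPM and fell by 1.44 (SE 0.24, FDR = 0.00429). Kif1c, a carrier of vesicles and integrins, was at 222, 218 and 223 CPM against 222, 233 and 206 CPM. Its log2 fold change was 0.0025 (SE 0.09, FDR = 0.985), and the sign of this value turned under 10 of 16 alternatives. The log2 fold change of Kif1b stood at the threshold, and the call was lost under 3 of 16 alternatives (-0.98 with no filter, and -0.97 and -0.97 without NF-YAfl/fl replicate 1 or 3). The call of Kif1a was lost without NF-YAfl/fl replicate 1 (-1.40), without any 1 of the NF-YAcKO libraries (-1.54 to -1.43) and with limma.

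The Kif5 genes encode conventional kinesin heavy chains, which carry mitochondria, vesicles and nuclei. Kif5b was at 432, 442 and 423 CPM against 554, 508 and 549 CPM. All NF-YAcKO libraries were below all NF-YAfl/fl libraries, but the difference was small and was not called (log2 fold change -0.31, SE 0.09, FDR = 0.0315 by edgeR). Kif5c was at 6.70, 6.88 and 7.94 CPM against 12.5, 15.3 and 10.2 CPM (log2 fold change -0.82, SE 0.19, FDR = 0.0143). Kif5a was at 1.53, 1.16 and 0.964 CPM against 2.18, 2.17 and 1.56 CPM (log2 fold change -0.70, SE 0.27, FDR = 0.0840). All 3 genes thus lay lower in each NF-YAcKO library without a call. Kif13b, which moves signalling cargo towards the plasma membrane, was at 26.7, 25.6 and 29.0 CPM against 46.0, 43.4 and 44.4 CPM, with an FDR that passed the threshold and a fold that did not (log2 fold change -0.72, SE 0.09, FDR = 0.00190). Kif13a, a recycling endosome motor, separated the groups by a slight margin, 44.5, 40.8 and 44.8 CPM against 47.5, 46.2 and 46.9 CPM (log2 fold change -0.11, SE 0.09, FDR = 0.336).

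The heterotrimeric kinesin-2 of cilia and vesicle transport is built from Kif3a with Kif3b or Kif3c, and from the accessory subunit Kifap3. Kif3a was at 24.7, 24.7 and 25.5 CPM against 35.5, 29.4 and 40.9 CPM (log2 fold change -0.50, SE 0.14, FDR = 0.0264 by edgeR). Kif3b was at 49.3, 49.3 and 48.9 CPM against 52.9, 44.4 and 59.2 CPM. Kif3c was at 44.2, 45.1 and 41.7 CPM against 38.7, 43.7 and 35.4 CPM. The groups overlapped for both partners (log2 fold change -0.09, SE 0.12, FDR = 0.595 for Kif3b and log2 fold change 0.15, SE 0.11, FDR = 0.295 for Kif3c), whereas Kif3a and Kifap3 separated them (53.6, 53.9 and 55.7 CPM against 72.5, 70.4 and 97.3 CPM for Kifap3, log2 fold change -0.56, SE 0.14, FDR = 0.0194). None of the 4 subunits was called. Among the Kifc motors outside the spindle, Kifc3, a motor of epithelial junctions and of the Golgi, was the 1 transport kinesin with all NF-YAcKO libraries above NF-YAfl/fl, at 62.4, 59.6 and 55.6 CPM against 32.8, 39.5 and 22.8 CPM (log2 fold change 0.90, SE 0.20, FDR = 0.0117). Kifc2 was at 0.736, 0.389 and 0.797 CPM against 1.91, 1.65 and 3.03 CPM (log2 fold change -1.78, SE 0.38, FDR = 0.0109), without a call, and was among the least abundant kinesins. Kif16b and Kif17 overlapped between the groups. At an FDR under 0.05 whatever the fold, 7 transport kinesins were lower and 1 was higher, beside 18.9% of all genes that were lower.

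**Figure D4:**
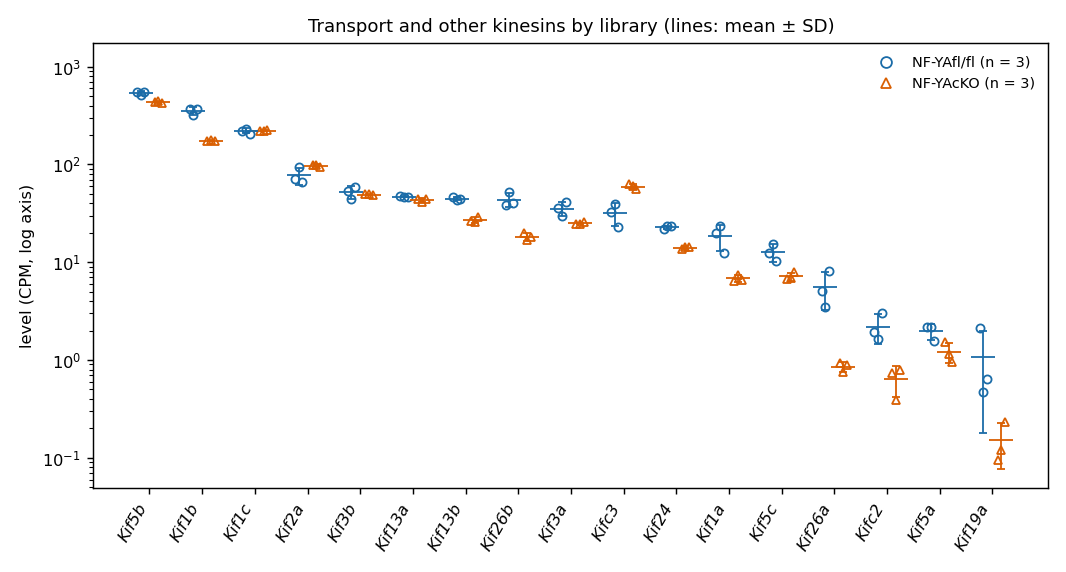
Level in each library (CPM, log axis) of the transport and other kinesins whose groups did not overlap, with Kif1c, Kif2a and Kif3b added as abundant genes that overlapped. Circles are 3 NF-YAfl/fl libraries, triangles 3 NF-YAcKO libraries and lines the mean and SD, and Kifc3 is the only gene shown whose NF-YAcKO libraries all lie above NF-YAfl/fl.

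The adaptors and light chains that tie kinesins to cargo were read from a list of 25 genes, of which 22 were tested. By edgeR 0 were called, 1 was higher and 9 were lower at an unadjusted p under 0.05, and DESeq2 called 1 lower. The log2 fold change lay below 0 for 18 of 22, with a median of -0.21, and for 8850 of all 17348 genes. The groups separated with NF-YAcKO below in 12 of 22 (54.5%) and above in 2 (9.09%), beside 26.2% and 29.1% of all genes. At an FDR under 0.05 whatever the fold, 9 of 22 were lower and 0 higher, beside 18.9% and 19.7% of all genes. At an FDR under 0.01 whatever the fold, 2 of 22 were lower (9.09%), a share near that of all genes (9.97%). The 2 genes, named after their values were seen, were Klc1, the main light chain of the Kif5 motors, and Map7d1, a microtubule protein that recruits kinesin-1. Klc1 was at 135, 137 and 139 CPM against 227, 241 and 234 CPM (log2 fold change -0.77, SE 0.08, FDR = 0.000866). Map7d1 was at 139.9, 139.6 and 141 CPM against 199, 187 and 241 CPM (log2 fold change -0.57, SE 0.11, FDR = 0.00856).

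The third class has the motors of cilia, signalling and microtubule ends. Kif26a and Kif26b, atypical kinesins that act in signalling, were the members called lower. Kif26b was at 19.9, 16.8 and 18.0 CPM against 38.9, 51.7 and 40.7 CPM and fell by 1.27 on the log2 scale (SE 0.14, FDR = 0.00117, edgeR). Kif26a was at 0.925, 0.748 and 0.893 CPM against 5.12, 3.51 and 8.14 CPM and fell by 2.71 (SE 0.35, FDR = 0.00186). The call of Kif26b was lost without NF-YAcKO replicate 2 (-1.25), and that of Kif26a without any 1 of the NF-YAcKO libraries (-2.79 to -2.65). With limma on log2(TPM + 1) the calls of both were lost (-1.02 for Kif26b and -0.73 for Kif26a), and with limma on log2(TPM + 0.1) that of Kif26b (-1.30). Kif24, a centriolar motor that restrains cilium formation, was at 13.7, 14.3 and 14.4 CPM against 21.9, 23.4 and 23.3 CPM, with a low FDR and a fold under the limit (log2 fold change -0.69, SE 0.10, FDR = 0.00279). Kif19a, a motor that limits the length of motile cilia, was near the detection limit at 0.0957, 0.121 and 0.235 CPM against 2.10, 0.476 and 0.645 CPM, and was not called (log2 fold change -2.76, SE 0.71, FDR = 0.0213). The other 6 overlapped between the groups. Kif2a, the abundant depolymerase related to Kif2c, was at 99.5, 97.9 and 93.1 CPM against 71.1, 94.7 and 66.0 CPM (log2 fold change 0.33, SE 0.15, FDR = 0.119). Kif7, the kinesin of Hedgehog signalling, was at 15.3, 15.6 and 14.5 CPM against 11.4, 12.4 and 17.2 CPM (log2 fold change 0.15, SE 0.18, FDR = 0.544).

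Levels were compared between genes only as TPM, which takes transcript length into account. Kif5b was the most abundant kinesin in both groups, at 78.5 ± 5.42 TPM in NF-YAcKO and 104 ± 15.4 TPM in NF-YAfl/fl (mean ± SD, n = 3). Kif1b ranked second in NF-YAfl/fl, at 51.4 ± 5.83 TPM, and had rank 10 in NF-YAcKO, at 23.5 ± 1.63 TPM. Kif20a had rank 5 in NF-YAfl/fl, at 25.2 ± 11.0 TPM, and rank 2 in NF-YAcKO, at 45.1 ± 3.60 TPM. Kif11 moved from rank 7 to rank 4. Neighbours in this order often overlapped within their SD, as did Kif20a and Kif2a (25.5 ± 9.36 TPM) in NF-YAfl/fl and Kif20a and Kif1c (41.3 ± 5.26 TPM) in NF-YAcKO. Summed over the 38 genes, the kinesins reached 532 ± 36.5 TPM in NF-YAcKO and 459 ± 121 TPM in NF-YAfl/fl, which overlapped between libraries. The mitotic motors made up 52.6, 54.5 and 53.3% of this sum in NF-YAcKO and 28.7, 37.1 and 28.0% in NF-YAfl/fl. The transport motors made up 38.7, 37.3 and 38.5% against 61.2, 52.2 and 61.2%, and neither share overlapped between the groups. The shares of a library add to 100%, so these separations are not independent. The summed TPM of the transport motors overlapped between the groups, at 219, 184 and 206 against 266, 308 and 216. Their summed CPM did not, at 1110 to 1130 against 1380 to 1470.

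**Figure D5:**
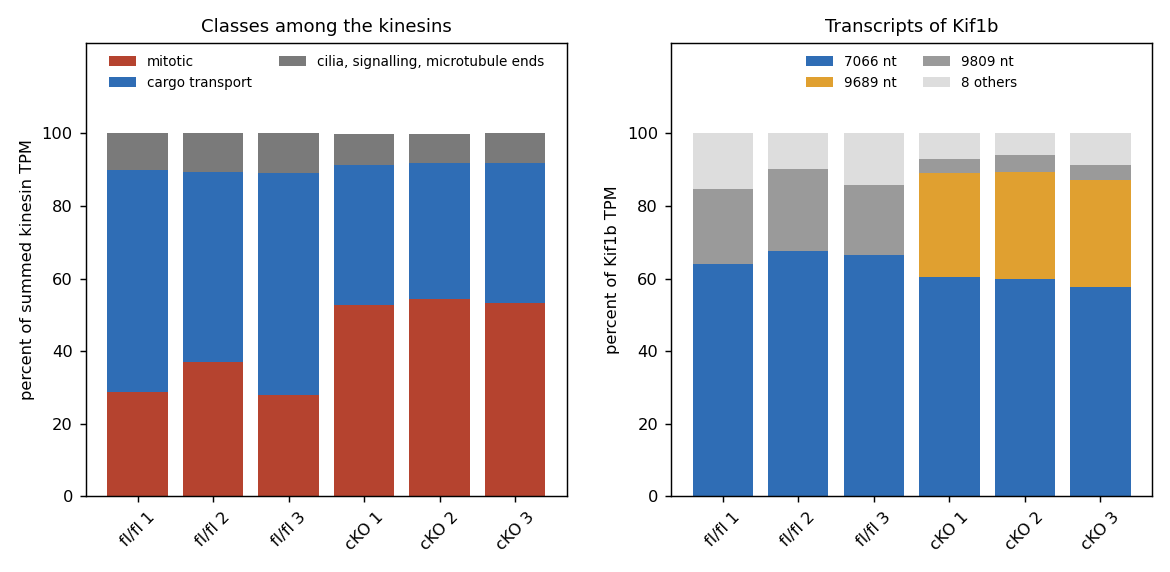
Left, percent of the summed kinesin TPM in each library taken by mitotic, transport and other kinesins. Right, percent of the Kif1b TPM taken by its transcripts, named by length in nt, where the transcript of 9689 nt is seen only in the 3 NF-YAcKO libraries.

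Kif1b was also 1 of 6 kinesin genes, among 24 examined, with a transcript whose share of the gene's TPM differed by at least 10 percentage points with no overlap, and 8 of 179 transcripts of these genes met this rule. Over all genes examined in the same way it was met by 18.2% of genes and 4.96% of transcripts, so the kinesin transcripts lay near the background. Its transcripts fall into 3 shorter forms of 4478 to 7066 nt and 8 long forms of 9333 to 10274 nt. The 7066 nt transcript, the main one, took 60.6, 59.8 and 57.6% of the Kif1b TPM in NF-YAcKO and 63.9, 67.6 and 66.5% in NF-YAfl/fl. A long transcript of 9689 nt had 1873, 2627 and 2631 expected counts in NF-YAcKO (28.6, 29.6 and 29.7% of the TPM) and 0 in each NF-YAfl/fl library. Another long transcript, of 9809 nt, took 3.69, 4.72 and 4.10% in NF-YAcKO and 20.7, 22.7 and 19.2% in NF-YAfl/fl. For both, the exact two-sided permutation p was 0.1, which is the smallest that 3 libraries against 3 allow. The long forms together were at 84.0 ± 3.15 CPM in NF-YAcKO and 135 ± 10.6 CPM in NF-YAfl/fl, and the shorter forms together at 91.5 ± 2.57 and 217 ± 20.3 CPM (SD, n = 3). Both kinds of transcript were thus lower in NF-YAcKO. The division of reads between long forms that differ by few bases is an estimate of RSEM, with no counting interval.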

How the data were processed

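The 3 NF-YAcKO and 3 NF-YAfl/fl RNA-seq libraries of cultured SCs were used, grouped by the genotype in their labels. The labels do not give the number of mice behind each library. The authors ran Bowtie2 against mm10 transcripts and RSEM on the paired reads, and deposited the resulting expected counts of genes and transcripts, which are not normalized. The deposited TPM values are scaled to effective length and keep no depth, and the deposited percent values give each transcript's share of its gene's TPM. After rounding, 17348 of 35976 genes exceeded 10 counts in 2 or more libraries and were tested for genotype, with no other factor, by edgeR 4.0.16 (TMM, quasi-likelihood) in R 4.3.3 with Benjamini-Hochberg adjustment (FDR). Thresholds were those of the study's methods. DESeq2 1.42.0, limma 3.58.1 on log2(TPM + 1) and log2(TPM + 0.1), other filters and scalings, a replicate block and the omission of each library were the alternatives. Total depth was 26936230 to 41118984 counts per library, and precision is given by the SE between libraries. No libraries within a group agreed within sampling noise. The edgeR step was tested on simulated counts with 200 changed genes.

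Every mitotic kinesin is named, and other kinesins where they were called, separated the groups or were among the 5 highest in mean TPM, with a few others for family comparison. From the partner lists, up to 4 called genes with the largest change and a mean of at least 10 CPM were named. Members, classes and lists were chosen with earlier results of these data known. Promoter windows came from RefSeq on GRCm38.p6, where 28 of 34 windows matched an annotated transcript on the same strand and 0 on the opposite. No window was given for Kif13b, Kif5a, Kif21b, Kifc3, Kif19a, Kif20a, Kif5b and Kifc2.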

Additional observations from a re-analysis of the deposited data

How the results depend on the processing

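Calls at FDR under 0.01 and a fold beyond 1 moved with the setting, while the sign of all 13 mitotic kinesins and of the 4 kinesins called lower held in all 16 alternatives. The alternatives of an FDR under 0.05 and of no fold threshold reuse the main fit, so no sign could change there. The mitotic and the total count called higher, 6, became 10 and 10 with no filter and 0 with limma on log2(TPM + 1) or log2(TPM + 0.1), 8 with DESeq2, and 0 to 10 (all kinesins 0 to 11) when 1 library was left out. Kinesins called lower, 4, became 1 and 2 with limma and 1 to 4 with a library left out, for transport kinesins 2, then 1 and 1, and 0 to 2, and for the third class 2, then 0 and 1, and 0 to 2. Transport kinesins called higher ranged from 0 to 1. Spindle partners called higher, 12, became 1 and 1 with limma and 1 to 20 with a library left out. Cargo adaptors called lower, 0, became 1 with DESeq2, 1 at an FDR under 0.05, 2 with no fold threshold and 0 to 1 with a library left out, and dynein genes became 2 higher and 2 lower with no fold threshold. Over all genes, 806 called higher became 231 and 361 with limma, 1787 with no fold threshold and 177 to 890 with a library left out, and 1331 called lower became 704 with limma on log2(TPM + 1), 2025 at an FDR under 0.05 and 523 to 1684. The cause was not tested. Over all tested genes, same-numbered libraries showed little joint deviation (r = 0.151, -0.062 and 0.053), which cannot exclude that the numbers pair the mice. Among the mitotic kinesins the second library had the highest median level in both groups. As a percent of the NF-YAcKO mean it was 105% in NF-YAcKO and 60.9% in NF-YAfl/fl. With a replicate block 9 mitotic kinesins were called higher.

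Of 608 pairs of a kinesin and an alternative, 52 lost and 28 gained a call and 14 turned sign, all in uncalled genes. Kif1c turned to -0.0190 with DESeq2 and with its size factors, -0.0353 with filterByExpr, -0.0290 unrounded, and -0.11 and -0.11 with limma, and ranged from -0.0479 to 0.0345 with a library left out. Kif21b ranged from -0.3576 to 0.2099 and Kif3b from -0.1995 to 0.0088 with a library left out, and Kif27 was at 0.0002 and 0.0064 with limma. Of all calls, 37.7% were higher, against 24.7 and 25.3% with limma and 50.8% with no fold threshold.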

Other observations

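Cytoplasmic dynein, the motor that moves cargo towards the minus end, was read from a list of 26 dynein and dynactin genes, all tested. The median log2 fold change was 0.08, and edgeR called 0 higher and 1 lower, as did DESeq2. At an unadjusted p under 0.05 by edgeR, 8 were higher and 6 lower. Over all tested genes, the shares called were 4.65% higher and 7.67% lower. The dynein gene called lower was Dync1i1, an intermediate chain best known from neurons and testis. It was at 1.63, 0.965 and 1.69 CPM in NF-YAcKO and 23.3, 21.4 and 9.67 CPM in NF-YAfl/fl (log2 fold change -3.67, SE 0.41, FDR = 0.00112, edgeR). The other intermediate chain, Dync1i2, was at 123, 126 and 123 CPM against 126, 120.0 and 151 CPM (log2 fold change -0.10, SE 0.11, FDR = 0.510). At an FDR under 0.01 whatever the fold, 2 of 26 were higher and 2 lower (7.69% each), below the shares of all genes (10.3% and 9.97%). Besides Dync1i1, these were the following, named after their values were seen. Nde1, a dynein regulator with a role in mitosis (0.63), and the light chain Dynlt1a (0.75) were higher, and the adaptor Bicd2 (-0.73) was lower. Dynlt1a has close copies, so its level is an estimate.

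Transcript shares of other kinesins that moved by at least 10 percentage points without overlap were found in Kif7, Kif1c, Kif3a, Kif13b and Kifc3. In Kif7 a transcript of 4525 nt took 18.7, 11.4 and 25.6% of the gene's TPM in NF-YAcKO and 0% in each NF-YAfl/fl library, while the level of the whole gene overlapped between the groups. In Kif1c a transcript of 2458 nt took 5.09, 16.6 and 13.04% in NF-YAfl/fl and 0.27, 0 and 0% in NF-YAcKO. All rest on RSEM's division of reads.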
